A study of Arabidopsis thaliana with 6 samples.

Results

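The genes described here encode the nuclear part of the photosynthetic light reactions: subunits of photosystems I and II without their antenna, the Rieske protein of cytochrome b6f, plastocyanin, ferredoxin, ferredoxin-NADP reductase (FNR), plastid ATP synthase and the PGR5 route of cyclic electron flow. They were taken from the authors' deposited gene table by 36 listed Arabidopsis locus identifiers, and all 36 were found among its 33557 genes and were tested by the authors. Whole seedlings of Arabidopsis thaliana, 4 days old and of 2 genotypes, gave RNA for 3 libraries of each, and both had the same light regime, coded in the labels as 4 days with the letter D and then 3 h with FR, for far-red. The first genotype was the fhy1-1 mutant carrying GFP-FHY1 under the 35S promoter, which is active in most plant tissues, and it was set against the fhy1-1 mutant itself. FHY1 is the chaperone that carries the far-red receptor phytochrome A into the nucleus. Both groups carry the fhy1-1 mutation, and no wild type and no seedlings kept from far-red are among the samples, so restored and excess FHY1 cannot be told apart here. The comparison asks what the presence of GFP-FHY1 changes in the transcriptome.

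In plants the photosystems are built from proteins made in the chloroplast, which form the reaction centres, and proteins made from nuclear genes and imported, which mostly sit at the edges of each complex. Electrons pass from water at photosystem II through cytochrome b6f and plastocyanin to photosystem I, and then through ferredoxin and FNR to NADP, while ATP synthase uses the proton gradient. Nuclear genes of this chain are textbook targets of light signalling in seedlings that leave the dark, and phytochrome A is the receptor that answers far-red light.

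The authors' deposited table gives each gene 1 level in each genotype, already combined across libraries and taken as FPKM, a level scaled by transcript length and sequencing depth. No spread between libraries can be given, and library depth is unknown. Genes with a q below 0.05 in that table count as called. As the check on the labels, FHY1 itself stood at 195.9 FPKM in the GFP-FHY1 line, against 19.0 FPKM in fhy1-1, 10.3-fold higher, and a value over this gene model does not separate transgene from mutant transcript. All 133 chloroplast genome genes of the table were listed at 0 in both genotypes, so the chloroplast-made partners of these proteins gave no value.

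Of the 36 genes, 35 were called higher in the GFP-FHY1 line by the q of the authors' deposited table, none was called lower, and PGRL1B was not called. Over all 23937 tested genes 9.92% were called higher and 12.9% lower, or 22.8% in either direction, and among the 10017 tested genes at a mean of 10 FPKM or more, a level that every one of the 36 reached, 15.9% were called higher and 25.9% lower. Among tested genes at a mean of 50 FPKM or more the shares were 19.1% and 48.9%. The median log2 fold change of the 36 was 0.97 (1.95-fold), while the median of the tested genes was -0.05. A rise of at least 2-fold was seen in 17 of the 36, against 2.12% of all tested genes, 2.3% of those at a mean of 10 FPKM or more and 3.49% at 50 FPKM or more. The largest folds were those of PSBQ2 (3.84-fold), PSBO2 (3.80-fold), PETE1 (3.35-fold), PSAK (3.25-fold) and PSAN (3.24-fold), and the smallest among the called genes were ATPG (1.31-fold) and FNR1 (1.42-fold). Of the 36, 32 lay at or above the 95th percentile of fold change among tested genes at a mean of 10 FPKM or more, and 7 were in its highest 1%.

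These are whole seedlings, and in bulk RNA more cells of a green type and more RNA per cell cannot be told apart. Mesophyll markers differed with the genotype in the authors' deposited table: CAB3 had 546 FPKM in the GFP-FHY1 line, against 105 FPKM in fhy1-1, CA1 245 against 32.1 FPKM and RBCS1A 3666 against 3083 FPKM. Of 8 root markers, 2 were called lower and 1 higher, and their summed level was 286 FPKM in the GFP-FHY1 line and 318 FPKM in fhy1-1, with PHT1-1 1.48-fold lower and SCR at 26.4 and 27.1 FPKM. Of 6 shoot epidermis and guard cell markers 2 were called lower and none higher (summed 998 FPKM in the GFP-FHY1 line and 1101 FPKM in fhy1-1), and none of 4 vascular markers was called (99.0 and 96.0 FPKM). All 5 seed reserve markers were called lower, with a summed 29.4 FPKM in the GFP-FHY1 line and 127 FPKM in fhy1-1. Of all tested genes 12.9% were called lower, 25.9% at a mean of 10 FPKM or more and 48.9% at 50 FPKM or more. Lower calls were thus common, but a share of calls does not give the size of a change. PHT1-1, at a log2 fold change of -0.57, lay below the 5th percentile of tested genes at a mean of 10 FPKM or more (-0.39). The root marker CASP1 (-0.15) and the epidermis markers PDF1 (-0.19) and FDH (-0.05), also called lower, lay above it. A difference in tissue was not tested. No marker of these lists was at 0 in either genotype, and their part in the differences of the 36 genes was not tested.

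**Figure D1:**
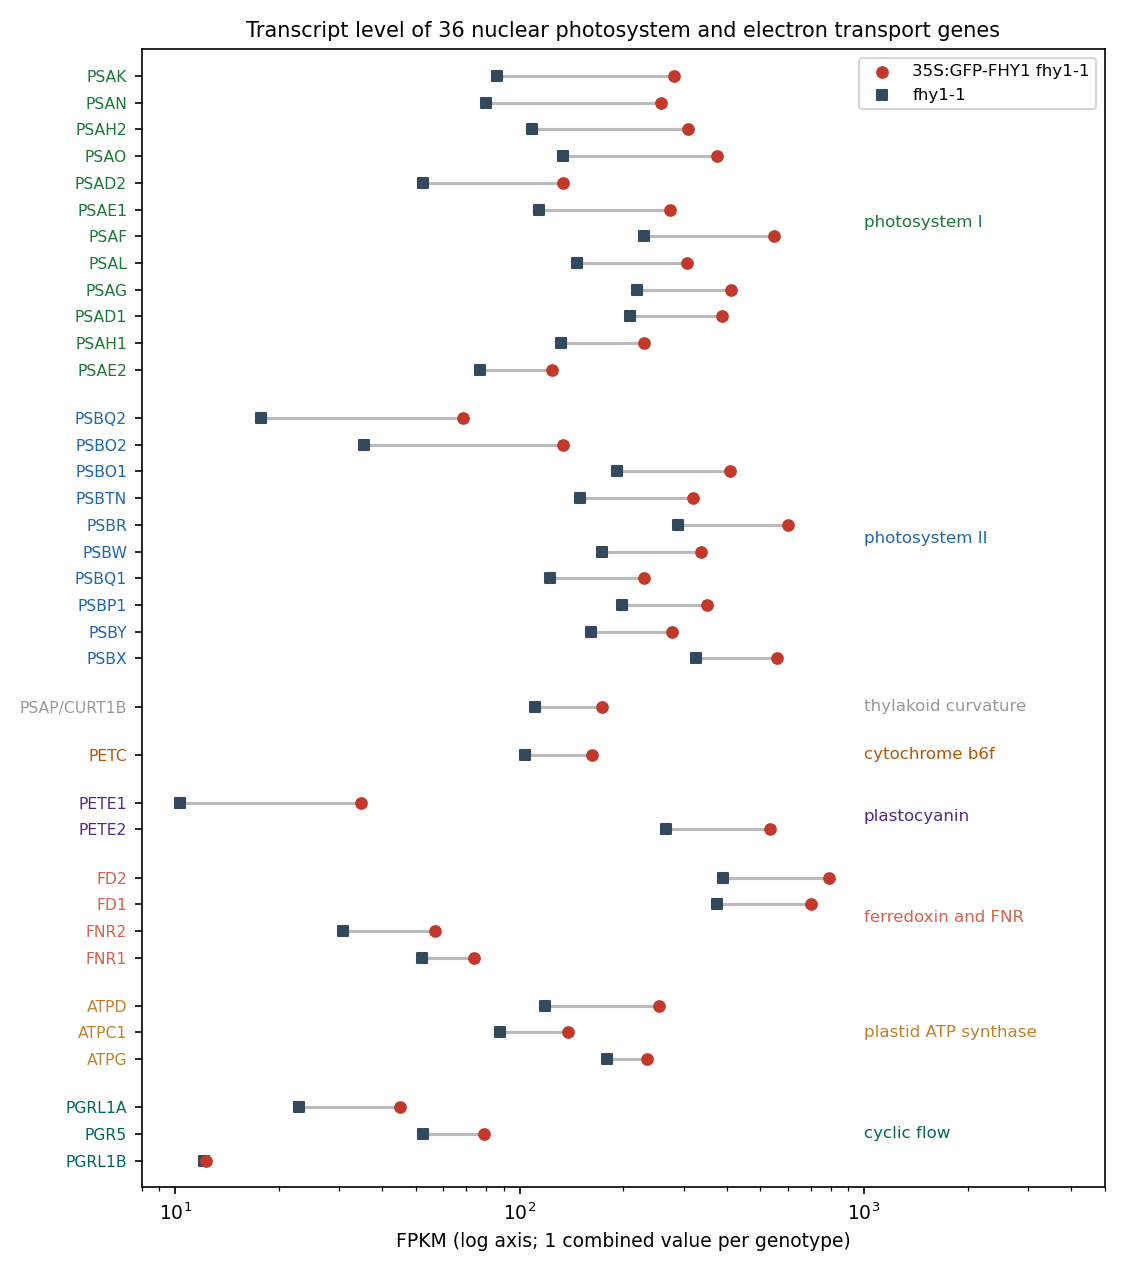
FPKM (horizontal log axis, 1 combined value per genotype) of the 36 genes, grouped by complex and ordered by fold change within each; red circles are the GFP-FHY1 line and dark squares fhy1-1. The circle lies to the right of the square for each gene, and for PGRL1B the points nearly coincide at 12.3 and 12.2 FPKM.

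The first sequences show upstream DNA of PSBQ2 and PSAK, which are among the genes with the largest folds and have no other annotated gene in the 250 bases before their start; they are examples with motif matches, and most of the 36 windows hold none. They are printed 5′ to 3′ from the RefSeq genome TAIR10.1, ending at the base before the annotated start, with motif matches in capitals.
PSBQ2 (chr4:2673244-2673493, minus strand): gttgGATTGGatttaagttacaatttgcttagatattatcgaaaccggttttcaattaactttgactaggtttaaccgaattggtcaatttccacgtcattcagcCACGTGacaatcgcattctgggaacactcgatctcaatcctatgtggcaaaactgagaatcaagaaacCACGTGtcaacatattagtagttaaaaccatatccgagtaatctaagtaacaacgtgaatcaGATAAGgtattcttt
PSAK (chr1:10721933-10722182, plus strand): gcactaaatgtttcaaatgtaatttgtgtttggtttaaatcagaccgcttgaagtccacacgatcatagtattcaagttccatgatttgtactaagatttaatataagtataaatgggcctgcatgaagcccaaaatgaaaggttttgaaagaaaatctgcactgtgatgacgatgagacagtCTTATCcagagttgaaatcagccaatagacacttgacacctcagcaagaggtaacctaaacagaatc
The motifs searched on both strands were the G-box CACGTG, a known site of light-regulated bZIP and bHLH factors such as HY5 and the PIFs, the I-box GATAAG, the element CCAATC, the evening element AAATATCT and CACGCGC, a known site of FHY3. In the PSBQ2 window a G-box began 145 and another 77 bases before the start, an I-box match 15 bases and a CCAATC match 246 bases before it. The PSAK window held an I-box match, on the opposite strand. The window of PSBO2, a gene with a larger fold than PSAK (3.80), also overlaps no other annotated gene and held none of the motifs.

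Over the 36 windows a G-box was found in 6 genes (16.7%: PSAE2, PSAH2, PSBQ1, PSBQ2, PSBTN and ATPD), against 6.49% of the windows of 27438 nuclear protein-coding genes. The I-box was found in 10 (27.8%, against 12.3%), CCAATC in 4 (11.1%, against 10.2%), the evening element in 2 (5.56%, against 4.79%) and CACGCGC in 0, against 1.06%. None of the motifs was found in 20 of the 36 windows (55.6%), against 69.7% of all windows. The median log2 fold change was 1.09 for the 6 genes with a G-box and 0.93 for the other 30. For the I-box it was 0.94 in 10 genes with a match and 0.97 in 26 without. These are descriptions of letters in fixed windows, and PGRL1B, the gene that was not called, also held an I-box match. Of the windows with a G-box, those of PSAE2, PSAH2, PSBQ1, PSBTN and ATPD overlap another annotated gene, and that of PSBQ2 does not. Among those with an I-box match, the windows of PSAH2, PETE2, FNR1 and ATPG overlap one.

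By the authors' deposited table each of the 12 photosystem I genes was higher in the GFP-FHY1 line and passed the threshold. Their median log2 fold change was 1.26, and 8 were at 2-fold or more. PSAK (AT1G30380), which sits at the edge that binds the antenna, had 279.9 FPKM in the GFP-FHY1 line, against 86.2 FPKM in fhy1-1. Its log2 fold change was 1.70, with a 95% interval of 1.61 to 1.78 from the error implied by the authors' statistic, which may hold less than the full spread between libraries. PSAN (AT5G64040), a lumenal protein at the site where plastocyanin docks, had 258 FPKM in the GFP-FHY1 line, against 79.7 FPKM in fhy1-1 (log2 fold change 1.70). These genes had the largest folds of the complex and were among its lower transcripts in fhy1-1.

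PSAO (AT1G08380), PSAH and PSAL (AT4G12800) lie on the side of photosystem I that binds light-harvesting complex II during state transitions. PSAO stood at 375 FPKM in the GFP-FHY1 line, against 134 FPKM in fhy1-1, and was 2.80-fold higher. PSAH2 (AT1G52230) had 309 FPKM in the GFP-FHY1 line, against 109 FPKM in fhy1-1, and its copy PSAH1 (AT3G16140) 229.8 against 132 FPKM. PSAL was at 306 FPKM in the GFP-FHY1 line, against 147 FPKM in fhy1-1. Their folds ran from 1.74 for PSAH1 to 2.84 for PSAH2, so the folds differed among genes of this side.

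PSAD and PSAE form the stromal ridge where ferredoxin docks, and each is encoded by a pair of genes. PSAD1 (AT4G02770) had 386 FPKM in the GFP-FHY1 line, against 209 FPKM in fhy1-1, and PSAD2 (AT1G03130) had 134 against 52.5 FPKM. PSAE1 (AT4G28750) stood at 274 FPKM in the GFP-FHY1 line, against 114 FPKM in fhy1-1, and PSAE2 (AT2G20260) at 124 against 76.7 FPKM. PSAF (AT1G31330), the subunit that plastocyanin binds together with PSAN, was the highest transcript of the complex in both genotypes, at 549 FPKM in the GFP-FHY1 line against 229.5 FPKM in fhy1-1. PSAG (AT1G55670), a relative of PSAK in sequence and at the antenna edge, rose 1.88-fold to 411 FPKM, against 219 FPKM in fhy1-1.

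With the copies of PSAD, PSAE and PSAH summed, the 9 photosystem I subunits spanned a smaller range of levels in the GFP-FHY1 line than in fhy1-1. The highest stood 2.13-fold above the lowest in the GFP-FHY1 line and 3.28-fold in fhy1-1, and the SD of the log2 levels over subunits was 0.41 and 0.64. PSAN was the lowest subunit in both genotypes, and the highest was PSAF at 549 FPKM in the GFP-FHY1 line and PSAD, as the sum of its copies, at 261 FPKM in fhy1-1. The 8 photosystem II subunits treated in the same way spanned 2.17-fold in the GFP-FHY1 line and 2.32-fold in fhy1-1, with SDs of 0.45 and 0.44. These ranges were not tested.

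Each of the 10 photosystem II genes also passed the threshold with a higher level in the GFP-FHY1 line, by the authors' deposited table (median log2 fold change 1.01, with 5 at 2-fold or more). The lumenal proteins PSBO, PSBP and PSBQ cap the manganese cluster that splits water. PSBO1 (AT5G66570), the main copy of the manganese-stabilising protein, had 408 FPKM in the GFP-FHY1 line, against 192 FPKM in fhy1-1. PSBO2 (AT3G50820, chromosome 3, 18890876 to 18892426, TAIR10) had 134 FPKM in the GFP-FHY1 line, against 35.3 FPKM in fhy1-1. PSBP1 (AT1G06680), which helps to hold calcium and chloride at the cluster, stood at 349 against 198 FPKM, a rise of 1.76-fold.

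PSBQ1 (AT4G21280) was at 229 FPKM in the GFP-FHY1 line, against 123 FPKM in fhy1-1. PSBQ2 (AT4G05180, chromosome 4, 2671822 to 2673243, TAIR10) was the lowest transcript of the complex, at 68.4 FPKM in the GFP-FHY1 line and 17.8 FPKM in fhy1-1, and had the largest fold of all 36 genes. The small membrane subunits PSBW, PSBY and PSBX had folds between 1.72 and 1.94. PSBW (AT2G30570), which stabilises the complex with its antenna, rose 1.94-fold to 337 FPKM. PSBY (AT1G67740) rose 1.72-fold to 277 FPKM and PSBX (AT2G06520) 1.72-fold to 559.8 FPKM. PSBR (AT1G79040), also a membrane subunit, is known to be needed for stable binding of PSBP. It rose 2.09-fold to 601 FPKM in the GFP-FHY1 line, against 288 FPKM in fhy1-1. PSBTN (AT3G21055), a small lumenal subunit, had 318 against 149.7 FPKM.

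**Figure D2:**
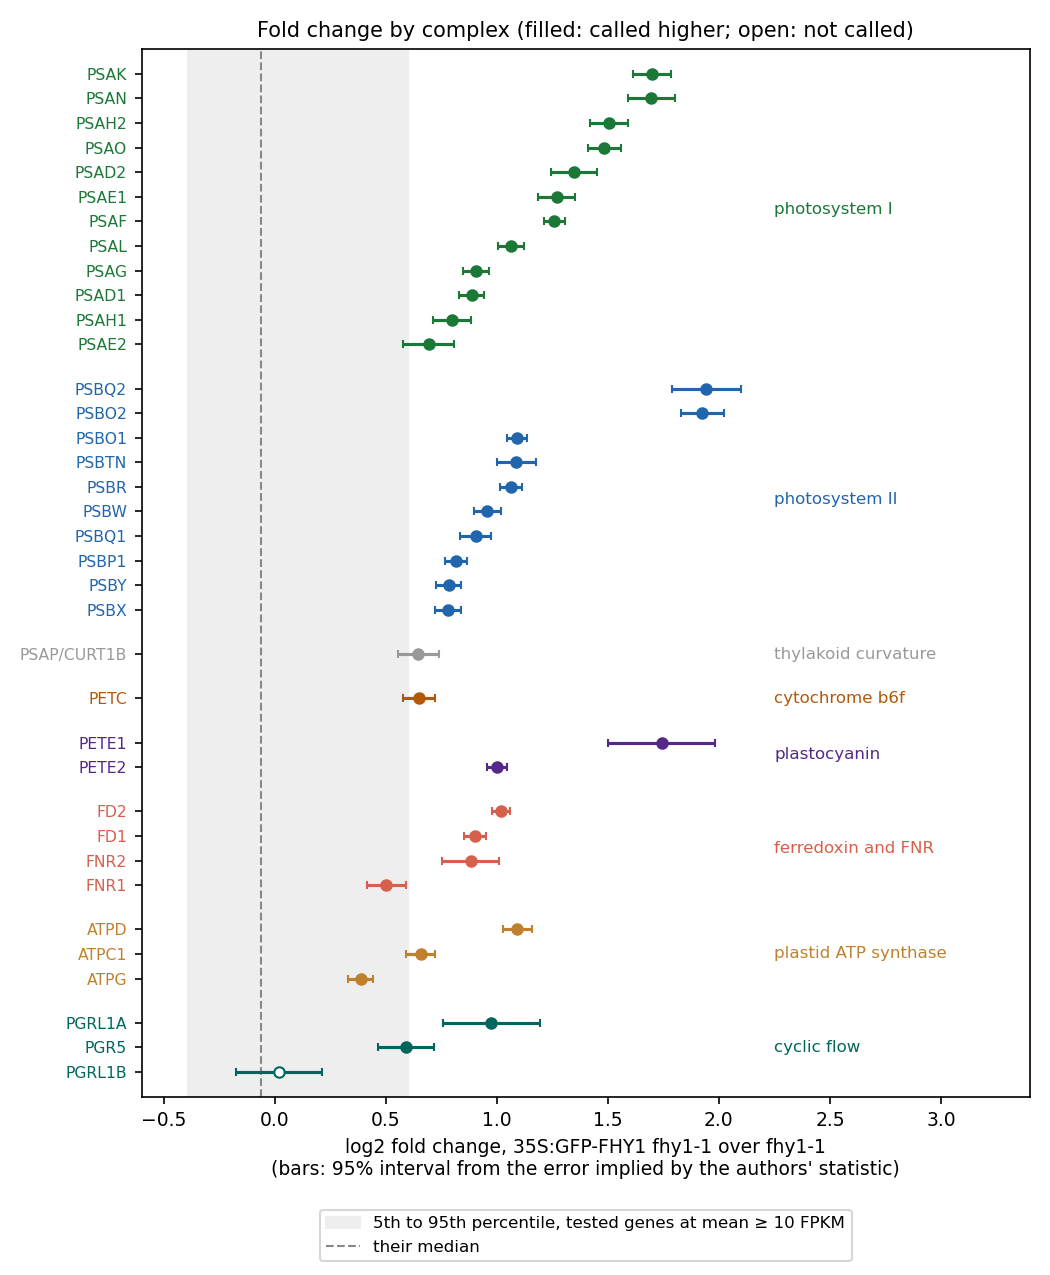
Log2 fold change (GFP-FHY1 line over fhy1-1, horizontal axis) of each gene, grouped by complex, with the 95% interval implied by the authors' statistic; filled points were called higher and the open point was not called. The grey band is the 5th to 95th percentile of tested genes at a mean of 10 FPKM or more (-0.39 to 0.60), and all photosystem genes lie to its right.

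Between the photosystems, PETC (AT4G03280), the nuclear-encoded Rieske iron-sulfur protein of cytochrome b6f, rose 1.57-fold, to 163 FPKM in the GFP-FHY1 line, against 104 FPKM in fhy1-1. Plastocyanin, the copper protein that carries electrons to photosystem I, came almost entirely from PETE2 (AT1G20340), at 533 FPKM in the GFP-FHY1 line and 267 FPKM in fhy1-1. The minor gene PETE1 (AT1G76100, chromosome 1, 28553987 to 28554768, TAIR10) had 34.6 FPKM in the GFP-FHY1 line, against 10.3 FPKM in fhy1-1. Both were called in the authors' deposited table, 3.35-fold higher for PETE1 and 2.00-fold for PETE2. The gene once named for a photosystem I subunit P and now known as CURT1B (AT2G46820), a protein that bends the thylakoid at grana margins, stood at 174 FPKM in the GFP-FHY1 line, against 111 FPKM in fhy1-1, 1.56-fold higher.

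On the acceptor side of photosystem I, the leaf ferredoxins were the highest transcripts of the 36. FD2 (AT1G60950), known as the main leaf form, had 789 FPKM in the GFP-FHY1 line, against 390.0 FPKM in fhy1-1, and FD1 (AT1G10960) had 699.9 against 374 FPKM. The leaf FNR genes were lower in level, with FNR1 (AT5G66190) at 73.7 FPKM in the GFP-FHY1 line, against 52.1 FPKM in fhy1-1, and FNR2 (AT1G20020) at 56.7 against 30.7 FPKM. Each of the 4 was called higher by the authors' q in the deposited table.

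The 3 nuclear ATP synthase genes had folds from 1.31 to 2.13, each with a call in the authors' deposited table. ATPD (AT4G09650), the delta subunit that ties the catalytic head to the stator, had 253 FPKM in the GFP-FHY1 line, against 119 FPKM in fhy1-1. ATPC1 (AT4G04640), the redox-regulated gamma subunit of the rotor, had 138 against 87.7 FPKM. ATPG (AT4G32260), a stator subunit in the membrane, had 235 FPKM in the GFP-FHY1 line, against 179.7 FPKM in fhy1-1. Their 95% intervals on the log2 scale were 1.03 to 1.16 for ATPD, 0.59 to 0.72 for ATPC1 and 0.33 to 0.44 for ATPG, and did not overlap. These intervals rest on the implied error alone, and differences between the genes were not tested. With a replicate spread of 20% (coefficient of variation) added to that error, ATPC1 and ATPG lost the call.

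PGR5 (AT2G05620) and the PGRL1 proteins carry the antimycin-sensitive route that returns electrons from ferredoxin to plastoquinone. PGR5 stood at 78.7 FPKM in the GFP-FHY1 line, against 52.3 FPKM in fhy1-1, 1.50-fold higher. PGRL1A (AT4G22890) was at 44.9 against 22.9 FPKM, 1.97-fold higher. PGRL1B (AT4G11960, chromosome 4, 7174886 to 7177840, TAIR10) stood at 12.3 FPKM in the GFP-FHY1 line and 12.2 FPKM in fhy1-1, with q = 0.940 in the authors' deposited table. Its fold of 1.01 had a 95% interval of 0.89 to 1.16 from the implied error, which holds neither the fold of PGRL1A nor that of PGR5. The interval leaves out the error of those folds, and the difference between PGRL1B and PGR5 was not tested.

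By complex, the median log2 fold change was 1.37 for plastocyanin (2 genes), 1.26 for photosystem I (12) and 1.01 for photosystem II (10). It was 0.89 for ferredoxin with FNR (4 genes), 0.66 for ATP synthase (3), 0.65 for PETC alone and 0.59 for cyclic flow (3). By summed FPKM, plastocyanin was 2.05-fold higher, photosystem I 2.29-fold and photosystem II 1.97-fold. For the 22 photosystem genes the median was 1.08, and for the other 14 genes it was 0.77. With a replicate spread of 20% (coefficient of variation) added to the implied error, 28 of the 36 stayed called higher: 21 of 22 photosystem genes and 7 of the 14 others. The genes that lost the call were PSAE2, CURT1B, PETC, FNR1, ATPC1, ATPG and PGR5. The loci of PSAE2, PSAH1, PSBR and FNR1 overlap another locus of the table, and without knowledge of strand their reads may be shared with that neighbour.

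Subunits encoded by a pair of genes allowed a comparison within 1 protein. There were 9 pairs, and their coding sequences were 75.0% to 88.0% identical in the RefSeq annotation. No stretch of 36 bases was shared between the copies, save 0.2% of such stretches in the PGRL1 pair, so reads of the other pairs differ in sequence over such a length. Only exact matches were searched. Whether reads that differ at few bases were placed on the wrong copy was not tested for any pair. With other annotated genes, on either strand, more was shared: 59.6% of the stretches of PSAG, 49.7% of PSAH1, 30.4% of PSAE1, 20.8% of PSAH2, 10.6% of FNR1 and 5.25% of FD1, and under 5% for the other 30 genes. Where such reads were counted is not stated in the sources used here, so the levels of these genes and the differences within the PSAH, PSAE and FNR pairs are less certain. The next sequences show 60 aligned coding bases of the PSBO and PSAD pairs (TAIR10.1), with the bases that differ between copies in capitals, 12 of 60 for PSBO and 5 of 60 for PSAD.
PSBO1 (chr5:26569340-26569399, plus strand): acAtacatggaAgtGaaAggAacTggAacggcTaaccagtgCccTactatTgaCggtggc
PSBO2 (chr3:18891745-18891804, minus strand): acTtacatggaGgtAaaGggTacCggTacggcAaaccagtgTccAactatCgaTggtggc
PSAD1 (chr4:1229514-1229573, minus strand): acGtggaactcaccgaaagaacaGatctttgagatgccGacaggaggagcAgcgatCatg
PSAD2 (chr1:753795-753854, minus strand): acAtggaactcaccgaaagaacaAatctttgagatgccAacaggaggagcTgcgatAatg

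In each of the 9 pairs the copies differed in log2 fold change beyond the error implied by the authors' statistic (adjusted p below 0.05, normal test on the difference, Benjamini-Hochberg over the 9 pairs). The copy with the lower level in fhy1-1 had the larger fold in 6 pairs, and the copy with the higher level in 3. PSBQ2 exceeded PSBQ1 by 1.04 (95% interval 0.87 to 1.21), PSBO2 exceeded PSBO1 by 0.84 (0.73 to 0.94) and PETE1 exceeded PETE2 by 0.74 (0.50 to 0.99). The other pairs in which the lower copy led were PSAH2 over PSAH1 by 0.71, PSAD2 over PSAD1 by 0.46 and FNR2 over FNR1 by 0.38. The fhy1-1 value both orders the copies and stands in their fold, so these measures are not independent.

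In the remaining pairs the difference was -0.58 for PSAE2 minus PSAE1 (-0.72 to -0.43), -0.96 for PGRL1B minus PGRL1A (-1.25 to -0.66) and -0.11 for FD1 minus FD2 (-0.18 to -0.05). With a replicate spread of 20% added, the difference stayed past the threshold in 3 pairs, those of PSBQ, PSBO and PGRL1 (95% intervals of the difference 0.36 to 1.71, 0.17 to 1.50 and -1.67 to -0.24). With 10% added it did so in 8 pairs, all but FD. The pairs of PSAE, PSAH and FNR each hold a gene whose locus overlaps another.

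The share of a copy in its pair differed between the genotypes by unlike amounts, and only a little for FD1 (47.0% in the GFP-FHY1 line, against 49.0% in fhy1-1). PSBO2 held 24.7% of the pair's summed FPKM in the GFP-FHY1 line, against 15.6% in fhy1-1, and PSBQ2 23.0% against 12.7%. PSAH2 held 57.4% in the GFP-FHY1 line and 45.2% in fhy1-1, the 1 pair whose order of copies turned round. With a replicate spread of 20% added, the fold difference of the PSAH pair did not pass the threshold. PGRL1B held 21.5% in the GFP-FHY1 line, against 34.7% in fhy1-1. Summed over its copies, the level of each of these proteins' transcripts was higher in the GFP-FHY1 line: PSBO 2.39-fold, PSAH 2.24-fold, PSBQ 2.12-fold, PSAE 2.09-fold, plastocyanin 2.05-fold, PSAD 1.99-fold, ferredoxin 1.95-fold, PGRL1 1.64-fold and FNR 1.57-fold.

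**Figure D3:**
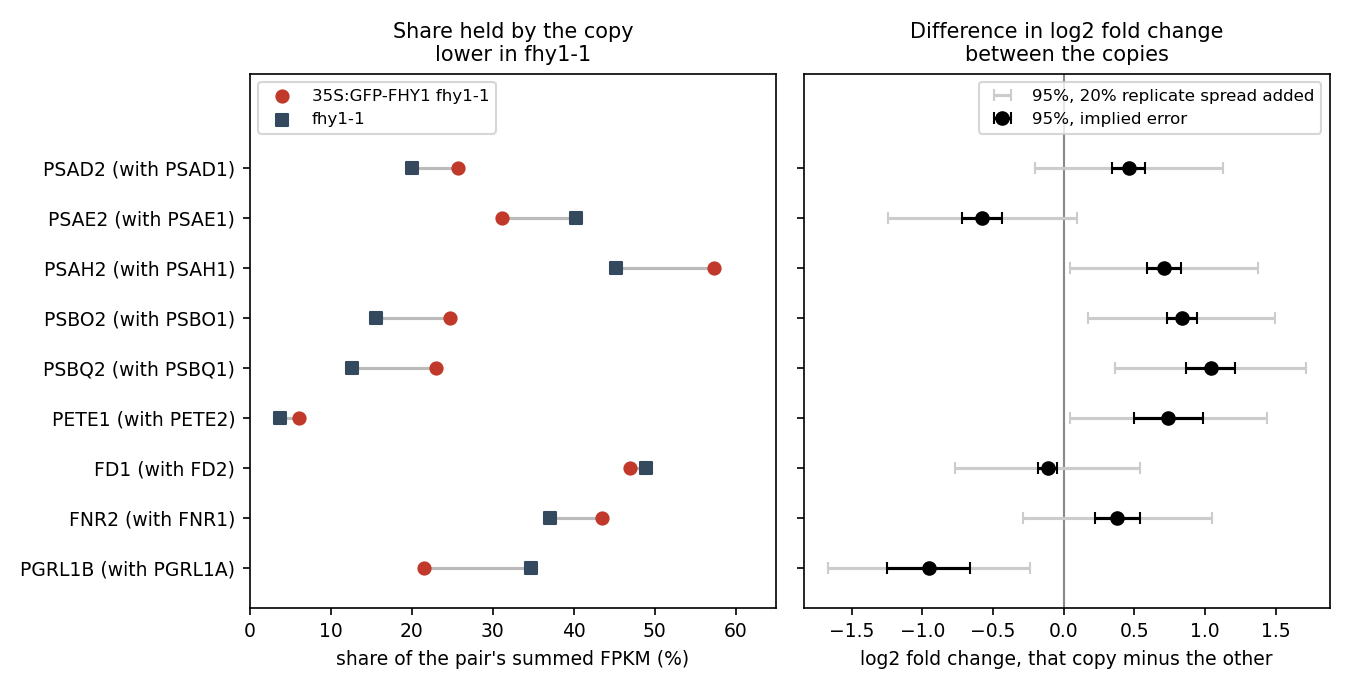
Left, share of a pair's summed FPKM held by the copy with the lower level in fhy1-1 (red circles, GFP-FHY1 line; dark squares, fhy1-1). Right, log2 fold change of that copy minus that of the other (horizontal axis), with 95% intervals from the implied error (black) and with a replicate spread of 20% added (grey). In this panel 6 pairs lie to the right of 0 and 3 to the left.

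Across the 36 genes the fold change did not follow the level: Spearman's rho with the FPKM in fhy1-1 was -0.09. Within the 22 photosystem genes it was -0.55, a description in which the fhy1-1 value enters both measures. The order of levels was largely kept between the genotypes (rho 0.94).

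**Figure D4:**
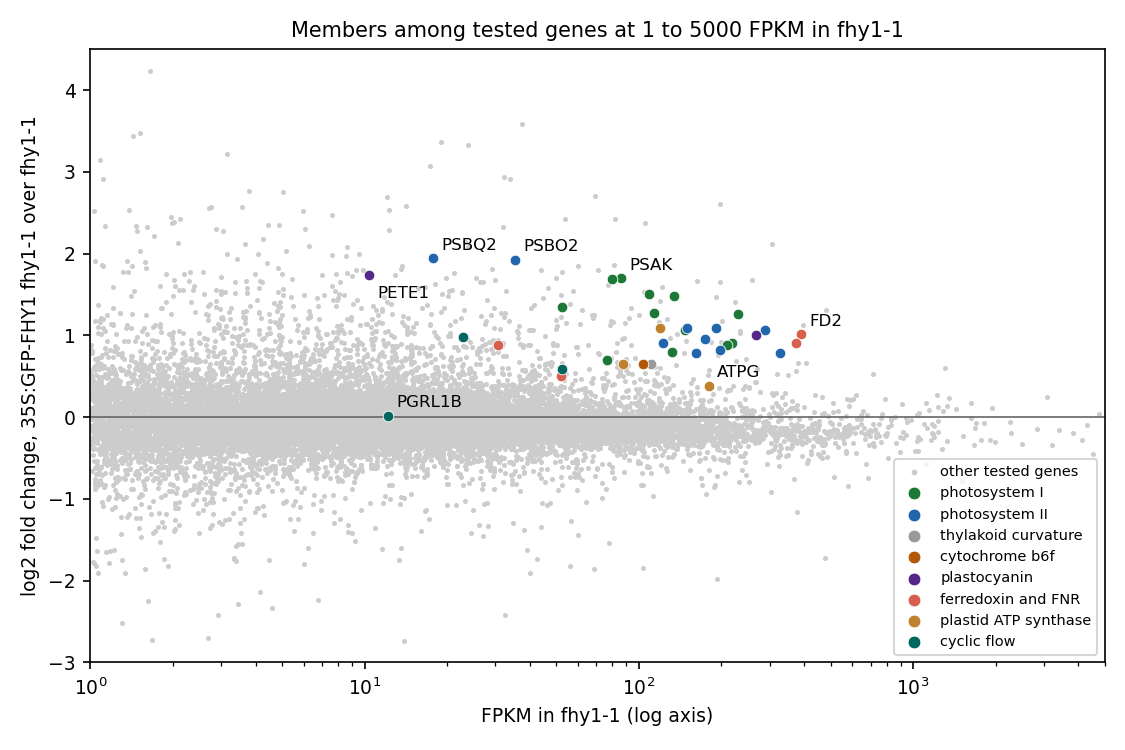
Log2 fold change (GFP-FHY1 line over fhy1-1) against FPKM in fhy1-1 (log axis) for the 36 genes, coloured by complex, over the other tested genes in grey. The 36 genes lie above 0, with PGRL1B at 0.02 the lowest of them.

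Related genes outside this set moved by different amounts. Of 17 nuclear genes of the chloroplast NDH complex, which carries the other route of cyclic flow, the authors' deposited table calls 15 higher and none lower (median log2 fold change 0.77). The share called higher was 9.92% of all tested genes and 15.9% of those at a mean of 10 FPKM or more. PNSB1 had 16.8 FPKM in the GFP-FHY1 line, against 4.99 FPKM in fhy1-1, NDHT 6.40 against 2.18 FPKM, PNSL3 10.7 against 3.74 FPKM and PNSB3 36.9 against 18.0 FPKM. The loci of PNSB1, PNSB3, PNSL3, NDHL, NDHS, PNSL1, PNSL2 and PNSB4, all called higher, overlap other loci. PNSL5, a cyclophilin, stood at 49.0 FPKM in the GFP-FHY1 line and 49.9 FPKM in fhy1-1, and NDHO at 27.8 and 23.6 FPKM, and neither was called.

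Of 17 assembly factors of the photosystems and thylakoid, the authors' deposited table calls 9 higher and none lower, and the median was 0.25. The largest rises were those of PSB28 (121 FPKM in the GFP-FHY1 line, against 54.1 FPKM in fhy1-1) and PSB27 (169 against 87.0 FPKM), which bind photosystem II while it is built or repaired. ALB3, which inserts proteins into the thylakoid membrane, rose 1.40-fold, and HCF164, which works on thylakoid thiols and whose locus overlaps another, 1.32-fold. LPA3 (26.9 FPKM in the GFP-FHY1 line and 27.1 FPKM in fhy1-1) and HCF101 (26.9 and 25.0 FPKM) were not called. Among 13 genes of thylakoid regulation and organisation, 6 were called higher and none lower (median 0.13). Beside both lists, 15.9% of tested genes at a mean of 10 FPKM or more were called higher, and 19.1% at 50 FPKM or more. STN7, the kinase of state transitions, rose 2.01-fold, and TIC62 and TROL, which tether FNR to membranes, 1.76-fold and 1.54-fold, and CURT1C, a relative of CURT1B, 1.49-fold. VIPP1 (47.2 FPKM in the GFP-FHY1 line and 44.0 FPKM in fhy1-1) and CURT1D (19.9 and 20.7 FPKM, in a locus that overlaps another) were not called.

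Of the isoforms known from roots and other non-green tissue, FD3, RFNR1 and RFNR2 were called lower in the GFP-FHY1 line, while their leaf counterparts FD1, FD2, FNR1 and FNR2 were called higher. By the authors' deposited table FD3, the root ferredoxin, fell 1.28-fold to 245 FPKM in the GFP-FHY1 line, against 314 FPKM in fhy1-1. RFNR1 and RFNR2, the root FNR genes, fell 1.53-fold and 1.41-fold, to 52.3 and 90.4 FPKM in the GFP-FHY1 line, against 79.8 and 127 FPKM in fhy1-1. The root FNR genes stood above the leaf genes FNR1 and FNR2 in fhy1-1 (79.8 and 127 against 52.1 and 30.7 FPKM), while in the GFP-FHY1 line RFNR1 stood below both and RFNR2 above both. Of the 10 isoforms and relatives listed, 3 were called lower and 2 higher (median -0.13 over 9, since FD4 is listed at 0 in the GFP-FHY1 line). Among tested genes 25.9% were called lower at a mean of 10 FPKM or more and 48.9% at 50 FPKM or more. FD3, RFNR1 and RFNR2 lie at the latter level, so calls in this direction were common among genes of like level. In size, RFNR1 (log2 fold change -0.61) and RFNR2 (-0.49) lay below the 5th percentile of those genes (-0.41), and FD3 (-0.36) above it. The called relative with the largest rise was PPL1, a PsbP-like protein, at 43.9 FPKM in the GFP-FHY1 line against 25.8 FPKM in fhy1-1. FDC2 (17.5 FPKM in the GFP-FHY1 line and 16.7 FPKM in fhy1-1) and CYTC6A (25.7 and 22.7 FPKM, in an overlapping locus) were not called.

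**Figure D5:**
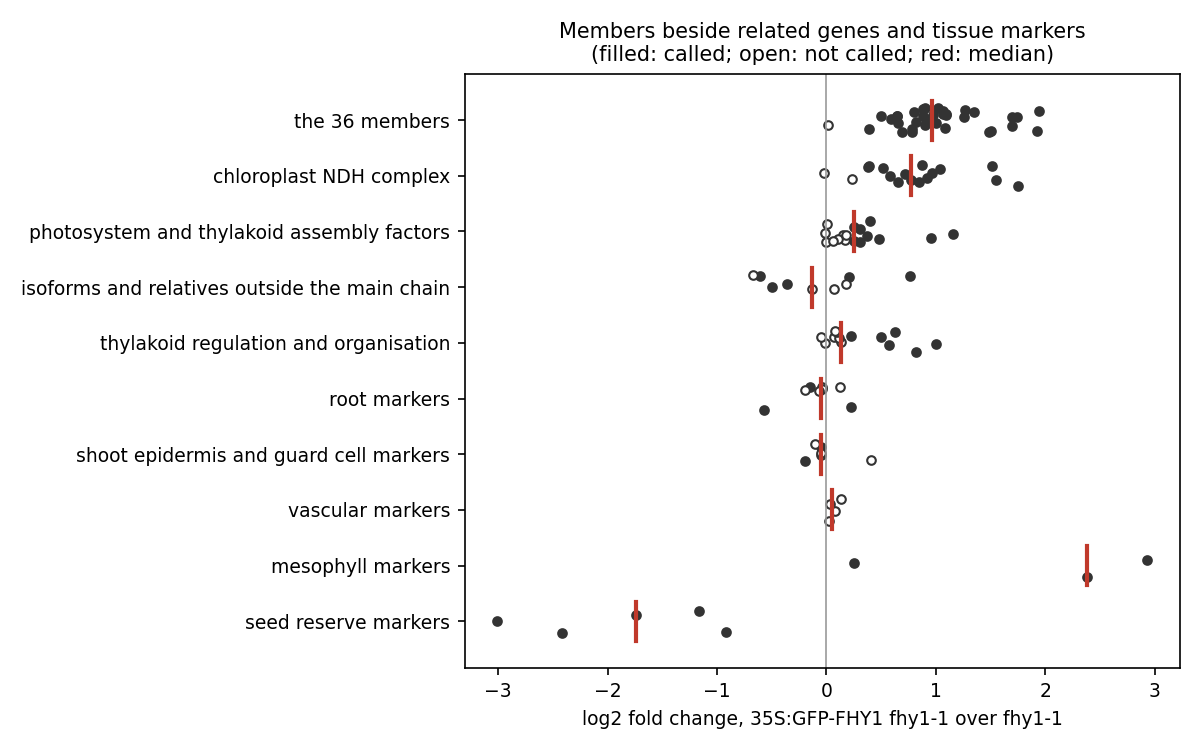
Log2 fold change (GFP-FHY1 line over fhy1-1) of the 36 genes, of related chloroplast genes and of tissue markers, 1 point per gene; filled points were called in either direction, open points were not, and red bars are medians. The median falls from 0.97 for the 36 genes and 0.77 for the NDH complex to 0.25 for assembly factors and -0.13 for isoforms outside the main chain.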

How the data were processed

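Transcript levels came from 6 RNA-seq libraries of Arabidopsis seedlings, 3 per genotype, grouped by the labelled genotype. Per the submitters' processing notes, Bowtie and the TAIR10 build were used. The sources used here do not state versions, strand handling, filters or library depth. Per the file headers, the deposited table is laid out like Cuffdiff output and names no unit for the level columns, which were read as FPKM, 1 value per gene and genotype, as combined by the authors. Recomputing the deposited p-value from the authors' statistic as a normal tail on both sides gave differences of at most 2.75e-06, and recomputing the deposited q-value by Benjamini-Hochberg over 23937 tested genes at most 1.82e-06. Log2 fold changes of the GFP-FHY1 line over fhy1-1 were taken from FPKM, not from the column the authors deposited.

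From these, the error of each log2 fold change was computed as the fold change divided by the authors' statistic, and gave 95% intervals, the comparison of 9 pairs and retests with a replicate spread of 10% or 20% added (numpy 2.4.6, scipy 1.17.1, pandas 2.3.3). These steps were run on simulated data drawn with the same errors that they assume, which checks the arithmetic only. Such data cannot show whether the implied errors hold, and pair differences with added spread were not simulated. With no values per library, p-values rest on the authors' model, and the labels call the libraries biological replicates. Intervals treat the copies of a pair as independent. The alternatives were a q below 0.01, at least a 2-fold change, Bonferroni adjustment, at least 1 FPKM in one genotype, a pseudocount of 1 FPKM with a log2 change of at least 0.58, subtraction of the median, rescaling to the FPKM sum without the ribosomal RNA locus AT2G01021, the added spread, and leaving out overlapping loci. Shares called among genes at a mean of at least 10 FPKM were added after seeing the data.

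Loci are given at the table's TAIR10 positions. Sequences, coding identity (biopython 1.88) and shared stretches of 36 bases used the RefSeq genome and annotation TAIR10.1 with its own coordinates, matched by locus tag for 36 of 36 genes. The genes named are the 36, FHY1, and for each other list up to 4 called genes with the largest change at a mean of at least 1 FPKM and the 2 uncalled genes with the highest mean; some of these are left out of the text. RefSeq gave the listed symbol for 81 of 83 genes of those lists. The 36 genes and the lists were chosen with earlier results of these data known. A further upstream sequence that met the rule for those printed is not reported here.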

Additional observations from a re-analysis of the deposited data

How the results depend on the processing

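As deposited, 35 of the 36 genes were called higher and 0 lower. That count stayed at 35 with a q below 0.01, with Bonferroni adjustment, with a minimum of 1 FPKM, after centring on the median, after rescaling without AT2G01021 and with a replicate spread of 10%. It was 33 with the pseudocount (without FNR1 and ATPG), 28 with a spread of 20%, 31 of 32 without overlapping loci, and 17 with a 2-fold minimum, which lowers it by construction. No gene was called lower and none changed direction under any of these, and PGRL1B was called under none. The median log2 fold change lay between 0.95 and 1.01. Centring and rescaling shifted every gene by the same 0.05 and 0.04. The number of pairs whose copies differed was 9 as deposited, 8 with a spread of 10% and 3 with 20%; a wider error lowers it by construction. No paired analysis was possible because libraries were combined by the authors within each genotype, and for the same reason no library could be left out. FPKM keeps no depth, so counting error cannot be stated for any gene.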

Other observations

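Grouped by where the protein sits, the authors' deposited table calls all 9 genes for lumenal proteins higher, 7 of them by at least 2-fold, with a median log2 fold change of 1.09. For the 16 genes of membrane proteins 15 were called higher and 6 by at least 2-fold (median 0.93), and for the 11 genes of stromal proteins 11 and 4 (median 0.89). Summed FPKM was 2333 in the GFP-FHY1 line, against 1072 in fhy1-1, for lumenal proteins, 4864 against 2435 for membrane proteins and 3008 against 1558 for stromal proteins. No test of these differences was made.

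Among the 500 genes with the highest FPKM stood 21 of the 36 in the GFP-FHY1 line, and 5 in fhy1-1. FD2 ranked 73 in the GFP-FHY1 line, against 243 in fhy1-1, and PSAF 133 against 511. Together the 36 genes held 1.38% of the FPKM sum without the ribosomal RNA locus AT2G01021 in the GFP-FHY1 line, against 0.669% in fhy1-1, and 0.856% of the whole sum, against 0.477%. That locus alone held 38.0% of the sum in the GFP-FHY1 line, against 28.6% in fhy1-1, and its part in the levels was not tested beyond the rescaling without it. Their loci lie on all 5 chromosomes, with 14 on chromosome 1 and 11 on chromosome 4.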
